A study of Mus musculus with 6 samples.

Results

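The integrated stress response is followed here through 10 genes: Atf4, Ddit3, Atf5, Cebpg, Trib3, Chac1, Asns, Sesn2, Ddit4 and Ppp1r15a. They were taken as a named list of well-known members of this response, by gene symbol. They are 10 of the 55263 annotated genes into which the deposited transcript counts were summed. These genes, and the lists set around them, were chosen with earlier results of these data known. Counts set beside the shares of all genes are therefore descriptions, not independent tests of the lists. The samples were mouse bone marrow-derived macrophages, which are grown from marrow progenitors in culture. There were 3 groups of 2 libraries each: macrophages given LPS together with HACA, macrophages given LPS alone, and control macrophages given neither. LPS is the bacterial cell-wall component sensed by Toll-like receptor 4. HACA is not spelled out in the labels, and the series title names a self-assembled hyaluronic acid nanomedicine. The labels describe only the control cells as wild type, and they give no dose, time, strain, sex or age. They also do not say whether the 2 libraries of a group came from separate cultures or animals, so every p-value below measures the spread between these libraries, which may be technical.

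In this response, stress-sensing kinases phosphorylate the translation factor eIF2 on its alpha subunit. Most protein synthesis then slows, while translation of the mRNA for the transcription factor ATF4 increases. ATF4 switches on genes for amino acid supply, for further transcription factors such as CHOP (made by Ddit3), and for feedback regulators that restore translation. The kinases respond to unfolded protein in the endoplasmic reticulum (PERK), amino acid shortage (GCN2), double-stranded RNA (PKR) and haem shortage (HRI). In macrophages, activation by bacterial products raises the demand for amino acids and for secretory protein folding, which are among the states this pathway senses. Because ATF4 is regulated mainly at translation, its mRNA level is not a measure of its activity.

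ATF4 binds composite ATF/C-EBP elements, and the core TGATGNAA (N is any base) was searched on both strands in RefSeq promoter windows of GRCm38.p6. Each window ran from 250 bases before to 50 bases after a transcription start, and all 10 members had at least 1 window. The core was present in 3 of the 10 genes: Chac1, Asns and Trib3. Of all 27025 genes with a window, 4.51% held it. Below are the stretches around the Chac1 and Asns matches, shown because these lie wholly before the start, unlike that of Trib3. The sequences run 5′ to 3′ on the gene's own strand, and capitals mark the matched 8 bases.
Chac1, chr2:119351038-119351067, plus strand: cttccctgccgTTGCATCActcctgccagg
Asns, chr6:7693214-7693243, minus strand: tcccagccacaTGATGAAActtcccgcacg
The Chac1 match reads the core on the opposite strand, from 193 to 186 bases before the start. In Asns the core lies on the gene's strand, 23 to 16 bases before the start. Trib3 held TTACATCA, the opposite-strand form, at bases 14 to 21 after its start. The endoplasmic reticulum stress element (ERSE), searched on both strands, was found in 0 of the 10 members and in 0.137% of all genes. A match describes letters in the window, and no match says only that these letters are not there.

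The libraries held 13007575 to 13933604 counts under LPS+HACA, 12529874 to 15379496 under LPS and 13036776 to 13806911 in control. Non-coding RNA genes of the class misc_RNA took 24.3% to 29.2% of a library. The 10 macrophage markers listed (summed level 31600 to 34400 CPM under LPS+HACA, 43200 to 54600 CPM under LPS and 40000 to 41400 CPM in control) were all detected. Levels below are CPM, counts expressed relative to library size, after edgeR's TMM scaling, a correction for differences in library composition, and each pair of values is replicate 1 then replicate 2. Differences are log2 fold changes ± SE from edgeR's quasi-likelihood fit over 17113 genes and all 6 libraries, with Benjamini-Hochberg adjusted p-values. A gene is said to have risen or fallen where its adjusted p was under 0.05. Under TMM scaling the median gene stood at a log2 difference of -0.053 for LPS over control and 0.059 for LPS+HACA over LPS. With unscaled library totals these medians were -0.69 and 0.70, so the changes given here are relative to the median gene.

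All 10 genes passed the filter on low counts, and all 10 had higher levels in both LPS libraries than in both control libraries. Of the 17113 genes tested, 31.4% were separated in this way and 35.3% in the other direction. By the test, 7 of the 10 rose (Chac1, Trib3, Ppp1r15a, Asns, Ddit4, Ddit3 and Cebpg), and 0 fell, where 15.9% of all genes tested rose, 14.3% fell and 30.1% changed in either direction. The median log2 difference of the 10 was 2.41, against -0.053 for all genes. With HACA added to LPS, the fitted values of all 10 were below those of LPS alone, except that Ddit3 (0.34) and Cebpg (0.061) lay above with unscaled library totals. The median was -1.27 against 0.059 for all genes. Ppp1r15a alone fell by the test and 0 rose, where 7.67% of all genes fell, 5.73% rose and 13.4% changed. In 6 of the 10, both LPS+HACA libraries lay below both LPS libraries, as in 27.3% of all genes, and in 0 they lay above, as in 30.3%. In the other 4, the libraries of the groups overlapped. Set against control, both LPS+HACA libraries lay above both control libraries for 7 of the 10 genes, as for 23.4% of all genes, and below for 0, as for 23.1%. The median log2 difference was 1.32, against 0.0042 for all genes. Trib3 alone passed the test, where 0.894% of all genes rose, 0.257% fell and 1.15% changed. DESeq2 called 3 of the 10 lower with HACA than with LPS, and 4 higher with HACA than in control. Against control, DESeq2 also called more of all genes tested than edgeR, as given in the closing section. Its share of all genes against LPS is not given here. The 3 comparisons share libraries and are therefore not independent. For each of the 10 genes, the group means were lowest in control, intermediate with LPS+HACA and highest with LPS.

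These counts rested on few libraries. The number of all genes called also moved when a library was left out, over the ranges given in the closing section. The 7 genes that rose under LPS became 2 without control replicate 1, 3 without control replicate 2, 5 without LPS replicate 2 and 10 without LPS replicate 1. Trib3 and Ppp1r15a rose in every one of these fits. The single gene that fell with HACA became 0 without control replicate 1, control replicate 2, LPS replicate 2 or LPS+HACA replicate 1, and 4 without LPS replicate 1. The single gene above control with HACA became 0 without either control library, 3 without either LPS library and 2 without LPS+HACA replicate 1.

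**Figure D1:**
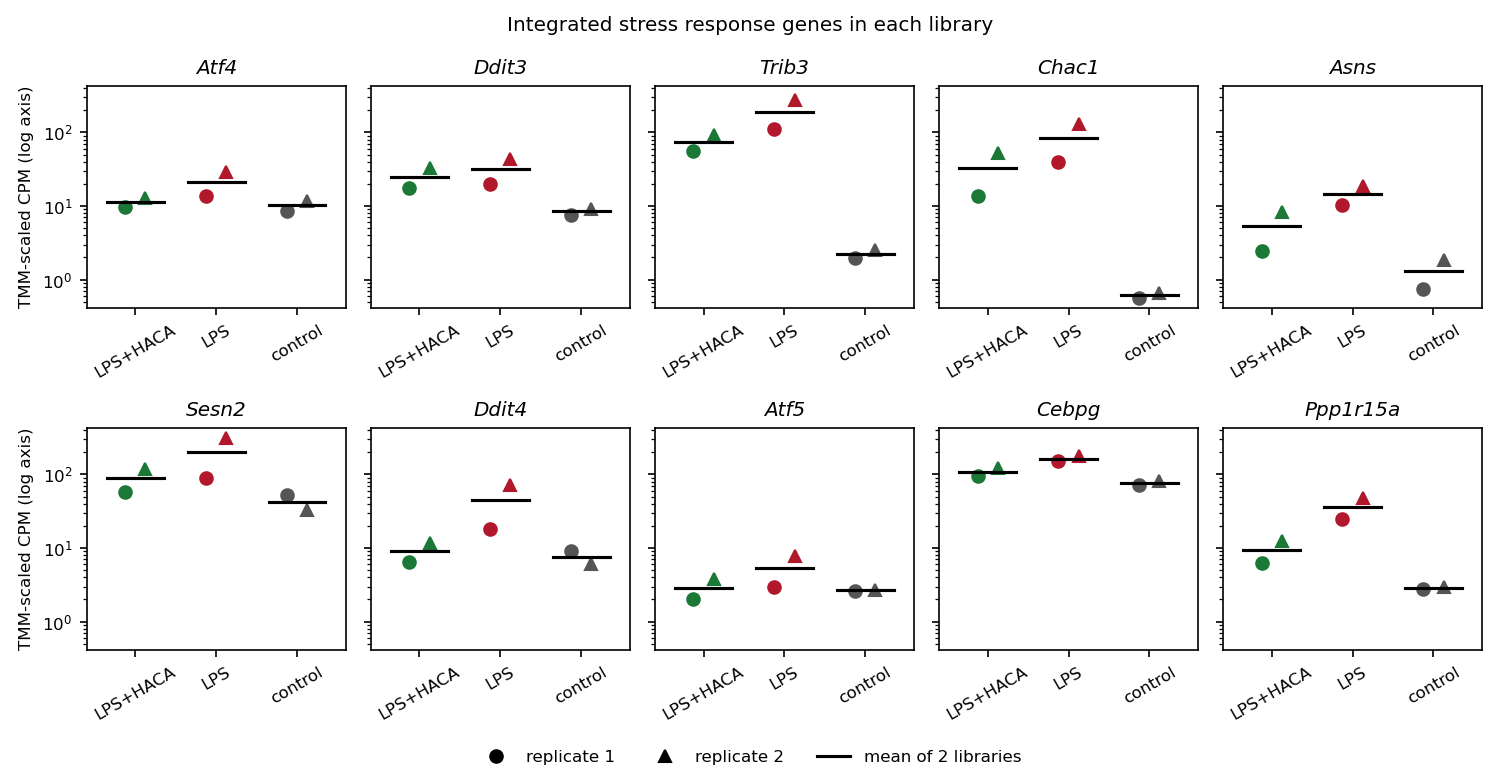
Levels of the 10 genes in each library (TMM-scaled CPM, log axis), with LPS+HACA left of LPS and control. Points are libraries and lines are group means. Every gene has its highest mean under LPS and its lowest in control, and Trib3 and Chac1 are furthest apart between groups.

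The 4 transcription factor genes had the 4 smallest differences between LPS and control. Atf4, the central activator, lies at chr15:80255184-80257541 (GRCm38, plus strand). Its level was 9.76 and 13.0 CPM under LPS+HACA, 13.6 and 29.1 CPM under LPS, and 8.58 and 11.9 CPM in control. The 2 LPS libraries differed from each other more than the lower one differed from control. The log2 difference was 1.06 ± 0.40 for LPS over control (adjusted p = 0.0777) and -0.90 ± 0.39 for LPS+HACA over LPS (adjusted p = 0.164), neither past the threshold. Both passed it without LPS replicate 1, at 1.51 (adjusted p = 0.00701) and -1.35 (adjusted p = 0.0201), and without LPS replicate 2 they were 0.41 and -0.25. Over control, LPS+HACA gave 0.15 ± 0.39 (adjusted p = 0.960) with overlapping libraries. Few of these counts were assigned to a coding Atf4 transcript, although how reads were counted is not given. Of the Atf4 counts, 98.6% belonged to Atf4-203, an annotated retained-intron transcript whose 633 bases shared with no other transcript all lie in introns of the coding transcripts. The coding transcript Atf4-201 held 1.35%, or 0 to 5 counts a library.

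Ddit3 encodes CHOP, a C/EBP-family factor induced by ATF4 and linked to cell death under prolonged stress (chr10:127290774-127296288, plus strand). Its level was 17.8 and 32.5 CPM under LPS+HACA, 20.1 and 43.7 CPM under LPS, and 7.64 and 9.24 CPM in control. Both stimulated groups lay above control, and they overlapped each other. Ddit3 rose by 1.92 ± 0.44 under LPS over control (log2, adjusted p = 0.0139), although the call was lost without control replicate 1 (adjusted p = 0.107) or control replicate 2 (adjusted p = 0.0791), and the value was 1.25 without LPS replicate 2. The difference between LPS+HACA and LPS was -0.34 ± 0.42 (adjusted p = 0.620), the smallest of the 10, and it changed sign to 0.32 without LPS replicate 2, to 0.060 without LPS+HACA replicate 1 and to 0.34 with unscaled library totals. Over control, LPS+HACA gave 1.57 ± 0.43 (adjusted p = 0.170), which passed the threshold without LPS replicate 1 (adjusted p = 0.0383) or LPS replicate 2 (0.0382).

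Within Ddit3, counts were divided between the coding transcript Ddit3-201 (53.9% of the gene's counts) and the retained-intron transcript Ddit3-202 (46.1%). Ddit3-201 has 161 bases shared with no other transcript. Ddit3-202 has 823, all in introns of the coding transcripts. As these lengths differ, a share of counts is not a share of Ddit3 RNA molecules. Fitted one transcript at a time over 31475 transcripts, a fit chosen after seeing the data, Ddit3-201 rose by 3.0 ± 0.52 under LPS over control (adjusted p = 0.00236), where 26.4% of transcripts changed. Ddit3-202 gave 0.91 ± 0.37 (adjusted p = 0.0938). The coding transcript held 45.7% (95% Wilson interval 40.1 to 51.5) and 56.6% (52.2 to 61.0) of the Ddit3 counts under LPS+HACA. It held 59.3% (52.5 to 65.8) and 67.4% (63.0 to 71.6) under LPS, and 39.3% (31.1 to 48.2) and 22.1% (16.1 to 29.7) in control. These intervals cover counting error only. By these point values the coding share was highest in both LPS libraries and lowest in both control libraries, although the intervals of LPS+HACA replicate 1 and control replicate 1 overlap, as do those of LPS+HACA replicate 2 and LPS replicate 1. A test of transcript use, also chosen after seeing the data, gave an adjusted p of 0.820 for LPS over control, so this shift did not pass the threshold (0.464% of 21354 transcripts did). Between LPS+HACA and LPS, Ddit3-201 gave -0.66 ± 0.47 (adjusted p = 0.411).

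**Figure D2:**
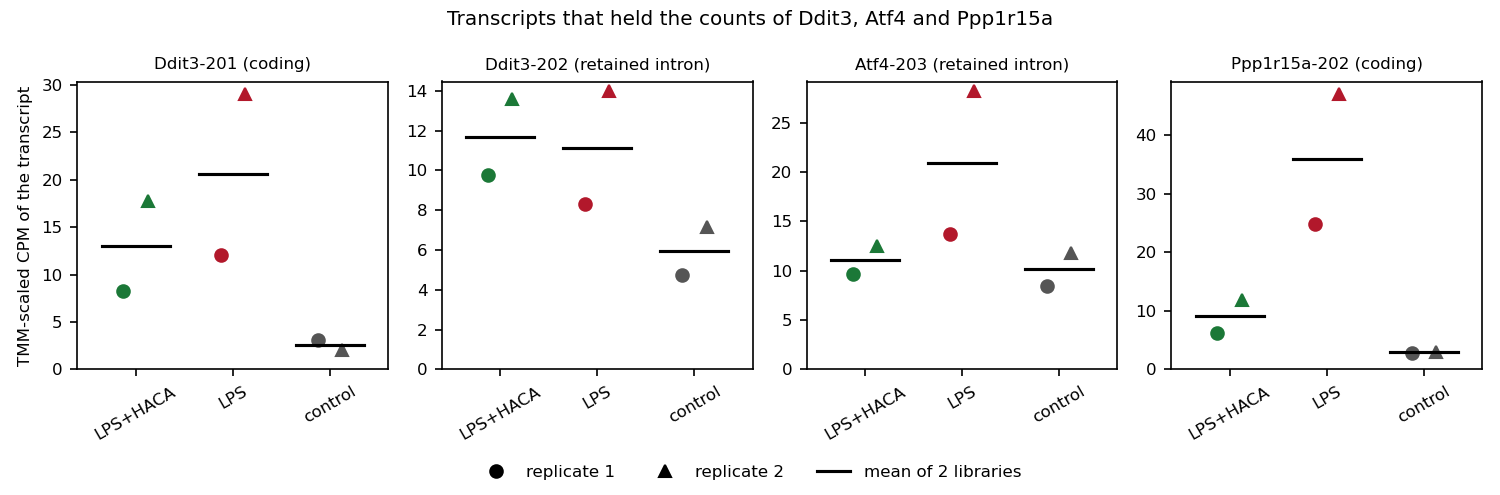
TMM-scaled CPM of the transcripts Ddit3-201, Ddit3-202, Atf4-203 and Ppp1r15a-202 in each library, with LPS+HACA left of LPS and control; circles are replicate 1, triangles replicate 2 and lines group means. For both Ddit3-201 and Ddit3-202, the LPS+HACA and LPS libraries overlap each other and lie above both control libraries.

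Atf5, a stress-induced relative of ATF4 (chr7:44812256-44816658, minus strand), was at 2.0 and 3.78 CPM under LPS+HACA, 2.95 and 7.80 CPM under LPS, and 2.63 and 2.71 CPM in control. Of its exonic bases, 13.1% belong to a single annotated transcript, and its 30 to 81 counts a library may come from these alone. Of these counts, 56.5% were from Atf5-202, whose own bases all lie in introns of other coding transcripts. LPS over control gave 1.01 ± 0.53 (adjusted p = 0.183), with 0.15 without LPS replicate 2 and 1.55 without LPS replicate 1 (adjusted p = 0.0282). LPS+HACA gave -0.90 ± 0.52 over LPS (adjusted p = 0.286), with -0.035 without LPS replicate 2 and -1.44 without LPS replicate 1, and 0.11 ± 0.53 over control (adjusted p = 0.983). With all 6 libraries, no comparison of Atf5 passed the threshold.

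Cebpg, the C/EBP family member that pairs with ATF4 on its target elements (chr7:35046422-35056573, minus strand), was at 96.3 and 122.7 CPM under LPS+HACA, 152.5 and 176.9 CPM under LPS, and 70.8 and 80.9 CPM in control. The 3 groups did not overlap, and the libraries within a group were closer than for any other member in the stimulated groups. Cebpg rose by 1.12 ± 0.23 under LPS over control (adjusted p = 0.00830). The call was lost without control replicate 1 (adjusted p = 0.0924), without control replicate 2 (0.0602) and with unscaled library totals (log2 0.47, adjusted p = 0.128). LPS+HACA gave -0.59 ± 0.22 over LPS (adjusted p = 0.119), which became 0.061 with unscaled totals, and 0.53 ± 0.22 over control (adjusted p = 0.408).

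Trib3 and Chac1 had the largest differences from control. Trib3 encodes a pseudokinase induced by ATF4 and CHOP that restrains AKT and feeds back on ATF4 (chr2:152337422-152344032, minus strand). Its level was 55.1 and 93.5 CPM under LPS+HACA, 110.4 and 274.3 CPM under LPS, and 1.94 and 2.51 CPM in control. Both LPS+HACA libraries lay below both LPS libraries, and both groups lay far above control. Trib3 rose by 6.43 ± 0.56 under LPS over control (adjusted p = 0.000348), and by 5.63 without LPS replicate 2. It was the only member above control by the test under LPS+HACA, by 5.06 ± 0.53 (adjusted p = 0.0114), a call lost without control replicate 1 (adjusted p = 0.179) or control replicate 2 (0.145). LPS+HACA over LPS gave -1.37 ± 0.44 (adjusted p = 0.0820), which was -0.57 without LPS replicate 2 and -1.89 without LPS replicate 1 (adjusted p = 0.00770).

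Chac1 encodes a glutathione-degrading enzyme and is a standard marker of ATF4 output (chr2:119351229-119354381, plus strand). It was at 13.6 and 52.5 CPM under LPS+HACA, 39.9 and 130.0 CPM under LPS, and 0.564 and 0.660 CPM in control. Control libraries held 9 and 10 Chac1 counts, so the base of the fold change is small. Chac1 rose by 7.10 ± 1.09 under LPS over control (adjusted p = 0.00769), the largest log2 difference of the 10. It was 6.01 without LPS replicate 2 and 7.72 without LPS replicate 1, and the call was lost without control replicate 1 (adjusted p = 0.0627) or control replicate 2 (0.0640). With HACA the difference from LPS was -1.36 ± 0.80 (adjusted p = 0.315), with overlapping libraries. It was -0.27 without LPS replicate 2, -1.98 without LPS replicate 1, -0.66 without LPS+HACA replicate 1 and -2.65 without LPS+HACA replicate 2. Over control, LPS+HACA gave 5.74 ± 1.04 (adjusted p = 0.0974), with 6.42 without LPS+HACA replicate 1 (adjusted p = 0.0275) and 4.46 without LPS+HACA replicate 2.

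Asns, which makes asparagine from aspartate and glutamine (chr6:7675169-7693254, minus strand), was at 2.43 and 8.30 CPM under LPS+HACA, 10.3 and 18.6 CPM under LPS, and 0.751 and 1.85 CPM in control. The 3 groups were separated in order. Asns rose by 3.47 ± 0.70 under LPS over control (adjusted p = 0.00965), a call lost without control replicate 1 (log2 2.94, adjusted p = 0.0683) or LPS replicate 2 (2.99, 0.0707), and the value was 4.25 without control replicate 2. LPS+HACA gave -1.43 ± 0.63 over LPS (adjusted p = 0.171) and 2.04 ± 0.69 over control (adjusted p = 0.277). Without LPS+HACA replicate 1 these were -0.77 and 2.69, and without LPS+HACA replicate 2 they were -2.58 and 0.90. The counts were spread over several transcripts, and 31.2% of the exonic bases belonged to a single transcript. Asns-205 (27.7% of the counts), Asns-202 (21.6%) and Asns-203 (15.4%) have all of their own bases in introns of other coding transcripts, and Asns-204 (9.98%) is a retained-intron transcript.

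Sesn2 and Ddit4 (also called REDD1) restrain the growth kinase mTORC1, through leucine sensing and the TSC complex. Sesn2 (chr4:132492032-132510501, minus strand) was at 58.6 and 118.7 CPM under LPS+HACA, 89.6 and 311.9 CPM under LPS, and 52.4 and 32.6 CPM in control. The 2 LPS libraries were far apart, and the LPS+HACA libraries overlapped them. Sesn2 gave 2.24 ± 0.68 for LPS over control (adjusted p = 0.0541). DESeq2 (adjusted p = 0.000553) and limma-voom (adjusted p = 0.0440) called it higher, and the edgeR value was 1.08 without LPS replicate 2 (adjusted p = 0.179) and 2.88 without LPS replicate 1 (adjusted p = 0.0114). LPS+HACA gave -1.18 ± 0.65 over LPS (adjusted p = 0.283), or -0.016 without LPS replicate 2 and -1.82 without LPS replicate 1, and 1.06 ± 0.65 over control (adjusted p = 0.660). Ddit4 (chr10:59949669-59951834, minus strand) was at 6.55 and 11.9 CPM under LPS+HACA, 18.2 and 71.8 CPM under LPS, and 9.02 and 6.07 CPM in control. Ddit4 rose by 2.57 ± 0.67 under LPS over control (adjusted p = 0.0293), lost without control replicate 1 (adjusted p = 0.103), control replicate 2 (0.154) or LPS replicate 2 (log2 1.27, adjusted p = 0.0533), and 3.25 without LPS replicate 1. The LPS+HACA libraries overlapped control (0.29 ± 0.65, adjusted p = 0.955) and lay below both LPS libraries, with a log2 difference of -2.29 ± 0.66 (adjusted p = 0.0683), the most negative of the 10. That value was -0.98 without LPS replicate 2 (adjusted p = 0.165) and -2.96 without LPS replicate 1 (adjusted p = 0.00321).

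Sesn2, Chac1 and Ddit4 each have a single annotated transcript that shares no base with another, so their levels can be compared with each other per length. On the authors' FPKM scale, Sesn2 was at 16.6 and 31.8 under LPS+HACA, 25.8 and 85.7 under LPS, and 15.0 and 9.16 in control. Chac1 was at 8.18 and 29.8 under LPS+HACA, 24.4 and 75.8 under LPS, and 0.344 and 0.394 in control. Ddit4 was at 3.68 and 6.29 under LPS+HACA, 10.4 and 39.0 under LPS, and 5.13 and 3.38 in control. Sesn2 was the highest of these 3 genes in every library. Chac1 was the lowest in control and the second in both stimulated groups.

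Ppp1r15a encodes GADD34, the inducible partner of protein phosphatase 1 that removes the phosphate from eIF2 and ends the response (chr7:45522916-45526268, minus strand). Its level was 6.24 and 12.5 CPM under LPS+HACA, 24.8 and 48.2 CPM under LPS, and 2.82 and 2.97 CPM in control. The 3 groups did not overlap. Ppp1r15a rose by 3.65 ± 0.46 under LPS over control (adjusted p = 0.00124), and fell by 1.96 ± 0.43 under LPS+HACA relative to LPS (log2, adjusted p = 0.0246). The fall lost its call without control replicate 1 (adjusted p = 0.0587), control replicate 2 (0.0605), LPS replicate 2 (0.0598) or LPS+HACA replicate 1 (0.137), and was -2.55 without LPS+HACA replicate 2. Over control, LPS+HACA gave 1.69 ± 0.44 (adjusted p = 0.146), which passed the threshold without LPS replicate 1 (adjusted p = 0.0445) or LPS replicate 2 (0.0450). Nearly all counts (99%) were from Ppp1r15a-202, whose 603 bases of its own all lie inside introns of the other coding transcripts. For this gene, as for Atf4, Atf5 and Asns, a change in transcript use or intron retention and a change in expression cannot be told apart. The same holds for the summed Ddit3 value, with 46.1% of its counts from the retained-intron transcript Ddit3-202.

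**Figure D3:**
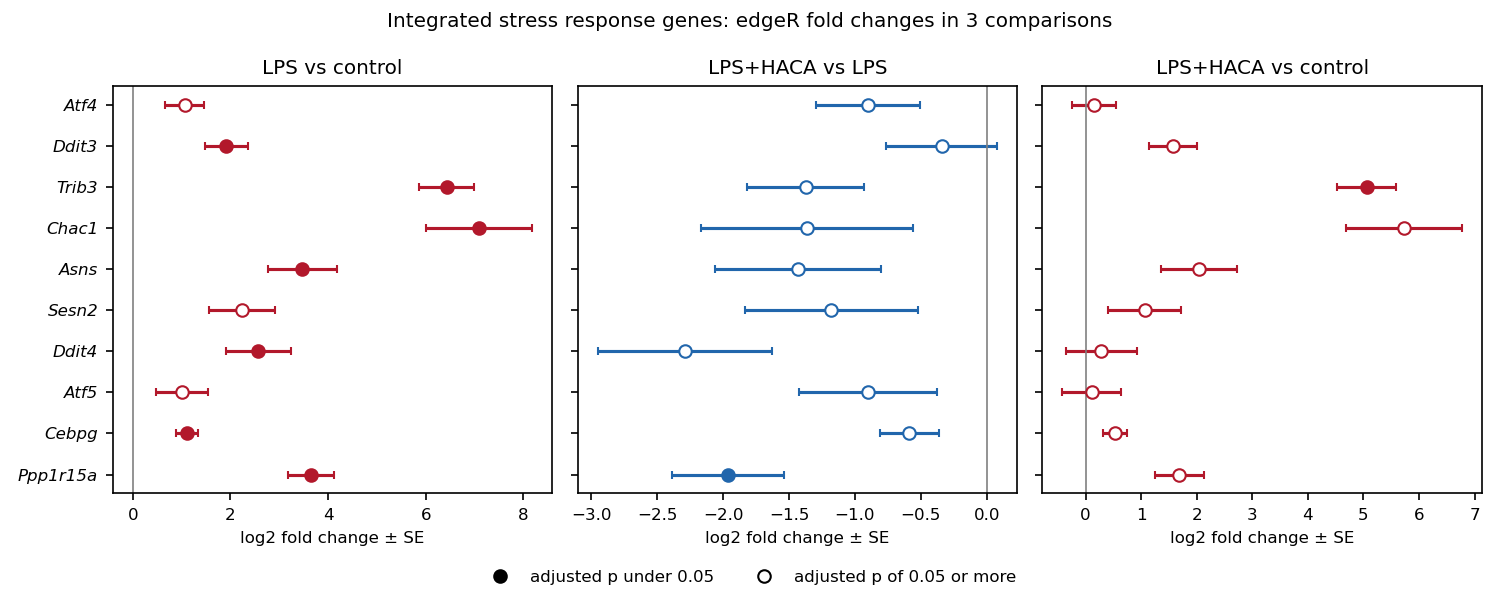
Log2 fold change ± SE of the 10 genes in each comparison (edgeR quasi-likelihood fit, 6 libraries), with filled symbols where the adjusted p was under 0.05. All 10 values lie above 0 for LPS over control and below 0 for LPS+HACA over LPS, where only Ppp1r15a passed; with unscaled library totals Ddit3 and Cebpg turn above 0 in the second.

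Differences between replicate numbers were large for these genes. All 10 were higher in replicate 2 than in replicate 1 under LPS+HACA and under LPS, and 8 of 10 in control, Sesn2 and Ddit4 being the exceptions. The share of all genes tested that was higher in replicate 2 was 51.3% under LPS+HACA, 49.2% under LPS and 50.4% in control. The median log2 difference of the 10 between replicates was 0.90 under LPS+HACA, 1.22 under LPS and 0.21 in control. Other marker lists differed between the same libraries. Neutrophil markers, of which Ly6g and S100a9 were at 0, summed to 4.97 and 37.0 CPM under LPS+HACA, 13.8 and 64.1 CPM under LPS, and 7.58 and 39.9 CPM in control. Markers of T and NK cells, with Cd3e, Cd8a, Nkg7 and Ncr1 of the 6 listed at 0, summed to 5.70 and 33.3 CPM under LPS+HACA, 5.02 and 33.8 CPM under LPS, and 14.8 and 41.4 CPM in control. Only 1 of these 6 passed the filter on low counts. Stromal markers ran the other way in sum, at 55.8 and 1.35 CPM under LPS+HACA, 36.9 and 2.5 CPM under LPS, and 52.4 and 1.78 CPM in control. Of the 6 stromal genes, 6 were higher in replicate 1 under LPS+HACA, 4 under LPS and 4 in control. The 12 cell cycle genes also ran the other way in sum, at 1560 and 408 CPM under LPS+HACA, 2040 and 1090 CPM under LPS, and 803 and 230 CPM in control. Of these 12, 12 were higher in replicate 1 under LPS+HACA, 11 under LPS and 11 in control. The part of these differences in the stress response values was not tested. In bulk RNA, fewer cells of a type and less RNA per cell cannot be told apart.

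**Figure D4:**
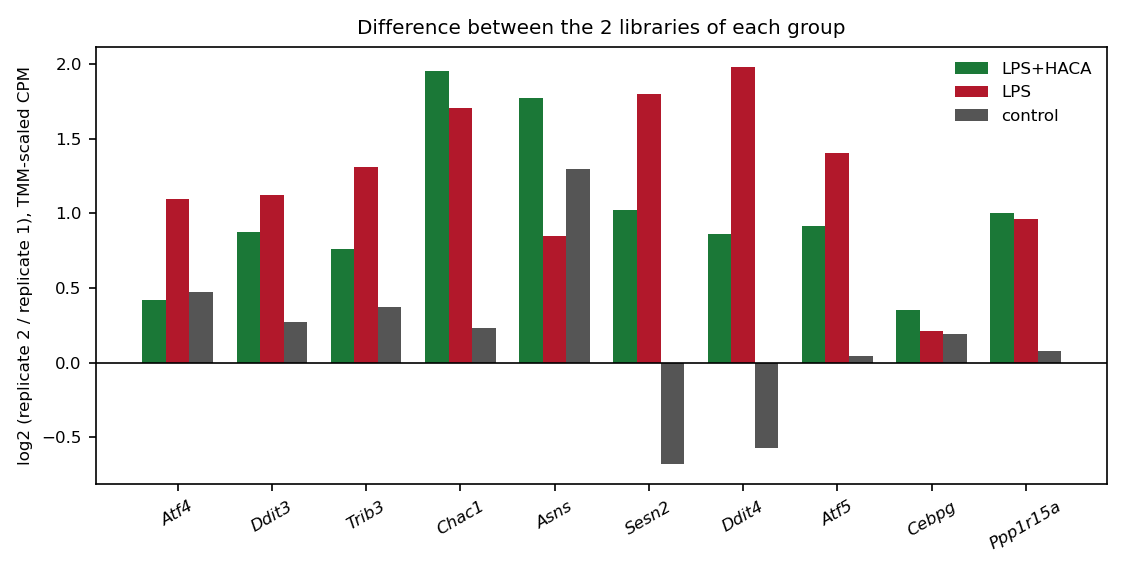
Log2 ratio of replicate 2 to replicate 1 for the 10 genes in each group. All 10 values are above 0 under LPS+HACA and under LPS, and 8 of 10 in control, with medians of 0.90, 1.22 and 0.21.

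The lists around the 10 genes are set beside the same shares of all genes tested: 15.9% rose and 14.3% fell under LPS, and 5.73% rose and 7.67% fell with HACA relative to LPS. Of 18 genes for eIF2alpha kinases, eIF2, eIF2B and phosphatase partners, all 18 were tested, and under LPS 6 rose and 2 fell, with a median log2 difference of -0.047 against -0.053 for all genes. That is more risers than the 15.9% of all genes, while the 2 that fell are near the 14.3%. Eif2ak2, which encodes the double-stranded RNA sensor PKR, was at 139.0 and 107.4 CPM under LPS+HACA, 447.4 and 283.4 CPM under LPS, and 72.6 and 76.8 CPM in control. It rose by 2.29 ± 0.28 under LPS (adjusted p = 0.00104) and was lower with HACA than with LPS, at -1.57 ± 0.27 (adjusted p = 0.0123), a call lost without either LPS+HACA library (adjusted p up to 0.0784) and with unscaled totals (adjusted p = 0.0703). Nck1, an adaptor that can promote eIF2 dephosphorylation, rose by 2.11 ± 0.34 (adjusted p = 0.00336), and Ppp1r15b, the constitutive counterpart of Ppp1r15a, by 1.63 ± 0.26 (adjusted p = 0.00305). Eif2ak4, the amino acid sensor GCN2, fell by 1.43 ± 0.42 (adjusted p = 0.0347), and Dele1, which relays mitochondrial stress to HRI, fell by 1.03 ± 0.29 (adjusted p = 0.0319). Both falls lost their call without any 1 library other than LPS replicate 1. With HACA, 3 of these genes fell relative to LPS and 0 rose, where 7.67% of all genes fell and 5.73% rose: Eif2ak2, Ppp1r15b (-1.11 ± 0.25, adjusted p = 0.0289) and Eif2s1, the eIF2 alpha subunit (-0.94 ± 0.22, adjusted p = 0.0285). With unscaled library totals this count was 3 higher and 0 lower, and LPS gave 3 higher and 6 lower. The 2 that fell under LPS became 0 in each fit without a library, except that without LPS replicate 1. The 6 that rose under LPS were 3 without either control library, and the 3 that fell with HACA were 1 without either control library and 0 without either LPS+HACA library. Ppp1r15b lost its fall in each fit without a library but that without LPS replicate 1, and Eif2s1 without either control or either LPS+HACA library. Between LPS+HACA and control, edgeR, DESeq2 and limma-voom each called 0 of the 18. The edgeR median was -0.034, against 0.0042 for all genes.

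Amino acid supply is the best-known output of ATF4. Of 18 listed ATF4 targets of synthesis and transport, 15 were tested (Slc7a3, Slc6a9 and Slc1a4 were too low). Under LPS 11 of the 15 rose and 0 fell, where 15.9% of all genes rose and 14.3% fell. The median log2 difference was 2.90, against -0.053 for all genes. Without either control library 8 rose, and without LPS replicate 2, 8 rose and 1 fell. Slc7a11, the cystine importer that feeds glutathione synthesis, was at 69.2 and 355.5 CPM under LPS+HACA, 1948 and 4116 CPM under LPS, and 22.9 and 65.2 CPM in control. Its rise of 6.11 ± 1.25 (adjusted p = 0.0295) lost its call when either control library or either LPS library was left out (adjusted p = 0.0766 to 0.156). Slc7a5, which with Slc3a2 carries large neutral amino acids such as leucine, was at 92.0 and 143.4 CPM under LPS+HACA, 257.7 and 620.0 CPM under LPS, and 8.58 and 7.59 CPM in control. It rose by 5.76 ± 0.50 (adjusted p = 0.000324). Slc7a1, the cationic amino acid transporter for arginine and lysine, rose by 5.03 ± 0.50 (adjusted p = 0.000649).

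With HACA, 5 of the 15 supply genes fell relative to LPS and 0 rose, where 7.67% of all genes fell and 5.73% rose, with a median of -1.29 against 0.059 for all genes. Among them were Slc7a1 (-1.99 ± 0.44, adjusted p = 0.0285), Slc7a5 (-1.90 ± 0.42, adjusted p = 0.0262) and the serine synthesis enzyme Psat1 (-1.71 ± 0.40, adjusted p = 0.0304). The Slc7a1 call was lost without control replicate 2, LPS replicate 2 or LPS+HACA replicate 1. Slc7a5 lost its call without either control or either LPS+HACA library, and Psat1 in each fit without a library but that without LPS replicate 1. The count was 2 lower and 1 higher with unscaled totals, 8 lower with DESeq2 and 10 lower, of 17 tested, without the filter on low counts. It was 7 without LPS replicate 1, 2 without control replicate 1 or LPS replicate 2, 1 without control replicate 2 or LPS+HACA replicate 2, and 0 without LPS+HACA replicate 1. Over control, 3 of the 15 stayed above by the test and 0 fell, where 0.894% of all genes rose and 0.257% fell. These were Slc7a5 by 3.86 ± 0.46 (adjusted p = 0.0146), Slc7a1 by 3.05 ± 0.46 (adjusted p = 0.0314) and Mthfd2, a mitochondrial folate enzyme, by 3.0 ± 0.30 (adjusted p = 0.00952). All 3 calls were lost without either control library, and that of Slc7a1 also without LPS+HACA replicate 2. DESeq2 called 5 of the 15 higher.

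Among 16 further ATF4 or CHOP targets, 13 were tested. Under LPS 7 rose and 1 fell, where 15.9% of all genes rose and 14.3% fell, with a median log2 difference of 1.54 against -0.053 for all genes. The growth arrest gene Gadd45a was at 11.4 and 16.9 CPM under LPS+HACA, 51.2 and 117.0 CPM under LPS, and 6.76 and 9.64 CPM in control. It rose by 3.36 ± 0.45 under LPS (adjusted p = 0.00147) and was lower with HACA than with LPS, at -2.57 ± 0.43 (adjusted p = 0.0111). The stress-inducible regulator Nupr1 rose by 2.92 ± 0.39 (adjusted p = 0.00147), and the angiogenic factor Vegfa fell by 2.59 ± 0.74 (adjusted p = 0.0354). Of the exonic bases of Vegfa, 9.75% belong to a single transcript, and its counts may come from these alone. The Vegfa call was lost when either control library or either LPS library was left out (adjusted p = 0.0555 to 0.234). Jdp2, a partner of AP-1 and ATF factors, rose by 2.79 ± 0.57 (adjusted p = 0.00888), lost without either control library. With HACA, 4 fell relative to LPS and 0 rose, where 7.67% of all genes fell and 5.73% rose, with a median of -0.80 against 0.059 for all genes. They included Ero1l, an oxidase for disulphide bonds in the endoplasmic reticulum (-1.68 ± 0.22, adjusted p = 0.00569), and the transcription factor Atf3 (-1.46 ± 0.27, adjusted p = 0.0153). Atf3 lost its call without either LPS+HACA library and Gadd45a without LPS+HACA replicate 1, while Ero1l kept it in every fit without a library. The 7 that rose were 4 without either control library, and the 4 that fell with HACA were 2 without LPS+HACA replicate 2 and 1 without LPS+HACA replicate 1. With unscaled totals 2 fell with HACA. Between LPS+HACA and control, edgeR and limma-voom called 0 of the 13 and DESeq2 called 2 higher. The edgeR median was 0.78, against 0.0042 for all genes. Without either LPS library edgeR called 2 higher.

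The other arms of the endoplasmic reticulum stress response run through XBP1 and ATF6. Of 17 chaperone and XBP1 or ATF6 arm genes, all tested, 2 rose under LPS and 0 fell, with a median of 0.23 against -0.053 for all genes. This count of risers is no larger a share than the 15.9% of all genes. The 2 that fell with HACA, against 0 that rose, stand beside 7.67% and 5.73% of all genes. Hspa5, the chaperone BiP, rose by 1.62 ± 0.28 (adjusted p = 0.00428), and was lower with HACA than with LPS, at -1.46 ± 0.28 (adjusted p = 0.0161). Its rise lost the call without control replicate 2 (adjusted p = 0.0594) and its fall without either LPS+HACA library. The other gene that rose was Atf6, at 0.62 ± 0.18 (adjusted p = 0.0361), a call that was lost with unscaled totals (adjusted p = 0.965) and without either control or either LPS+HACA library. Xbp1, the spliced factor of the IRE1 arm, fell by 0.92 ± 0.24 with HACA relative to LPS (adjusted p = 0.0416), lost in 5 of the 6 fits without a library, all but that without LPS replicate 1. With unscaled totals, 1 of the 17 rose under LPS and 3 fell, and 0 changed between LPS+HACA and LPS. Without control replicate 2 the 2 that rose became 0, without control replicate 1 or either LPS+HACA library 1, and without LPS replicate 1 they became 5 with 1 lower. Between LPS+HACA and control, edgeR, DESeq2 and limma-voom each called 0 of the 17. The edgeR median was -0.20, against 0.0042 for all genes. For LPS+HACA over LPS the 2 that fell became 1 without either control library or LPS replicate 2, and 0 without either LPS+HACA library.

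The paralogs of the 10 did not share one direction. Of 11 listed, 10 were tested, and under LPS 4 rose and 2 fell, where 15.9% of all genes rose and 14.3% fell, with a median of 0.018 against -0.053 for all genes. Cebpd (2.79 ± 0.22, adjusted p = 0.000215), Trib1 (2.41 ± 0.33, adjusted p = 0.00166) and Cebpb (1.79 ± 0.33, adjusted p = 0.00550) rose. Sesn1 fell by 2.19 ± 0.32 (adjusted p = 0.00210) and Cebpa by 1.59 ± 0.42 (adjusted p = 0.0240). The Cebpb and Cebpa calls were lost without either control library. Sesn1 was at 24.6 and 16.9 CPM under LPS+HACA, 5.02 and 7.51 CPM under LPS, and 30.3 and 27.1 CPM in control, with LPS apart from both other groups. It was higher with HACA than with LPS by 1.73 ± 0.31 (adjusted p = 0.0143). Cebpd (-1.71 ± 0.22, adjusted p = 0.00546), Trib1 (-1.95 ± 0.32, adjusted p = 0.0111) and Ppp1r15b (-1.11 ± 0.25, adjusted p = 0.0289) fell with HACA relative to LPS. Against LPS, then, 1 of the 10 paralogs rose with HACA and 3 fell, where 5.73% of all genes rose and 7.67% fell. Without LPS+HACA replicate 1 the counts were 0 and 1, and without LPS replicate 2 and with unscaled totals they were 2 and 2. Of these 4, only Cebpd kept its call in every fit without a library. Between LPS+HACA and control, edgeR and limma-voom called 0 of the 10 and DESeq2 called 1 higher. The edgeR median was 0.29, against 0.0042 for all genes. Without either LPS library edgeR called 1 higher.

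**Figure D5:**
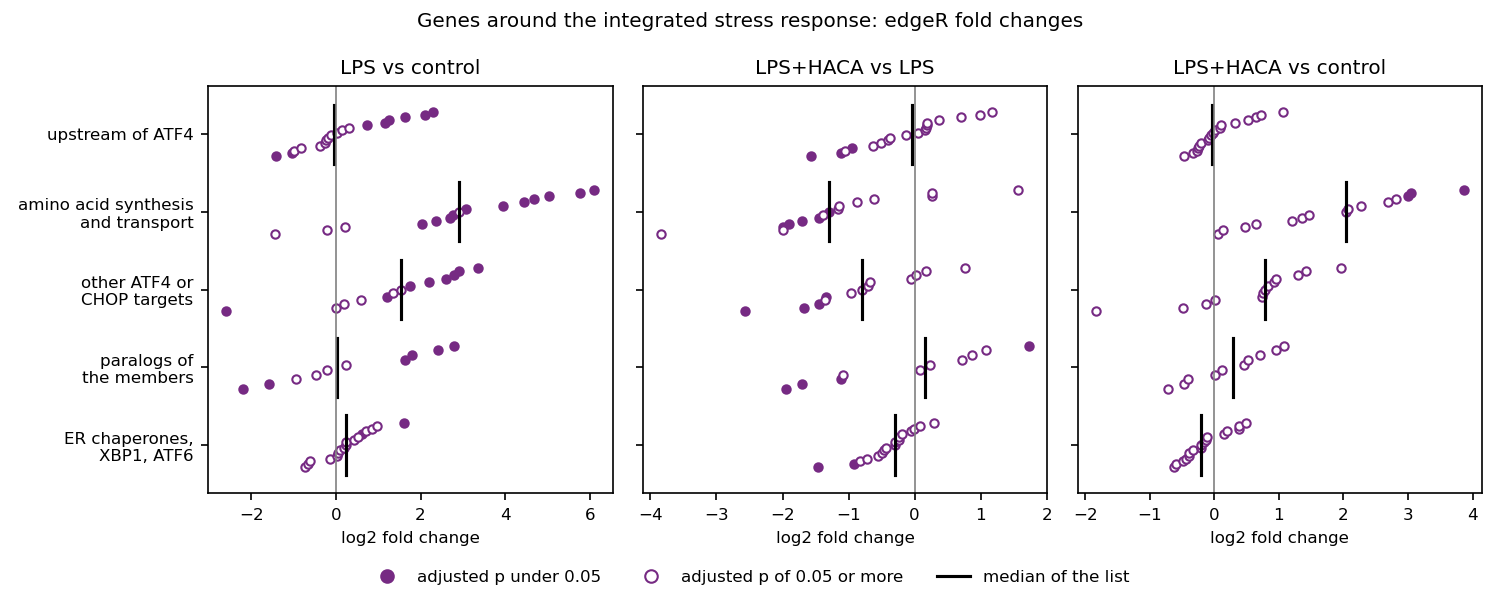
Log2 fold change of each tested gene in the 5 gene lists around the stress response, in 3 comparisons; filled points passed an adjusted p of 0.05 and black lines are list medians. The amino acid supply list has medians of 2.90 for LPS over control and -1.29 for LPS+HACA over LPS, and the upstream list has medians of -0.047 and -0.043.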

How the data were processed

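TruSeq libraries were made from bead-captured poly-A RNA, per the labels' protocols. The deposited counts are whole numbers for each transcript. The deposited FPKM values are those counts scaled by the authors for transcript length and library size, and are used only for per-length levels. The submitters' processing notes name, without roles, DESeq2 1.26.0, edgeR 3.28.1, STAR 2.5.4b, limma, Trim Galore and CASAVA, and the builds GRCm38 and GRCh38. How reads were counted, and whether by strand, is not given in the sources used here. Of 142647 transcripts, 141524 matched GENCODE and were summed to 55263 genes; the other 1123 held at most 0.115% of a library and stayed out. Among the 10 genes, every transcript with no base of its own had 0 counts, so genes with many isoforms may have been measured over part of their exons only. List genes named for their changes had 9.75% (Vegfa) to 98.9% (Atf6) of their exonic bases in a single transcript. Slc1a4, too low to be tested, had 1.38%. Ddit3 shares 68 exonic bases with Mars and Atf5 shares 82 each with Il4i1 and Nup62 on the opposite strand.

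Counts were filtered with filterByExpr, scaled with TMM and tested in edgeR 4.0.16 (R 4.3.3) with group as the only term and 3 residual degrees of freedom; SE is the log2 difference divided by the square root of F. Alternatives were DESeq2 1.42.0, limma-voom 3.58.1, other scaling, no filter, the main transcript only, a replicate block, and each library left out. The script was tested on simulated data. Transcripts were tested only after seeing the data. The members and lists were chosen with earlier results of these data known. In every comparison all 10 members were named, with up to 3 called genes per direction and list with the largest changes. For Atf4, Ddit3 and Chac1 the 3 genes with the most similar profiles over the 6 libraries were named, among 8686 genes with a mean of at least 5 CPM. Other marker lists summed to at most 73.0 CPM for dendritic cells, 13.7 for B and plasma cells, 31.5 for erythroid cells and 0.295 for mast cells and basophils.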

Additional observations from a re-analysis of the deposited data

How the results depend on the processing

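With 2 libraries per group, the number of genes called depended on single libraries. Leaving out each library in turn gave 2149 to 5843 changed genes for LPS over control (5154 with all 6), 369 to 3411 for LPS+HACA over LPS (2294) and 0 to 606 for LPS+HACA over control (197). Of the 10 stress response genes, these fits called 2 to 10, 0 to 4 and 0 to 3 in the same 3 comparisons. The fit without the filter on low counts tested 29118 genes rather than 17113. In it, 3600 genes and 6 members changed for LPS+HACA over LPS, and 911 genes and 6 members for LPS+HACA over control. DESeq2 called 3 members for LPS+HACA over LPS, and 666 genes and 4 members for LPS+HACA over control, where limma-voom called 119 genes. Unscaled library totals gave 4021 changed genes for LPS+HACA over LPS, 87.0% of them higher (42.8% with TMM, 32.0% with limma-voom), and for LPS over control 21.7% higher (52.7% with TMM).

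Values with another sign were, for LPS+HACA over LPS, Ddit3 at 0.34 (library totals), 0.32 (without LPS replicate 2), 0.060 (without LPS+HACA replicate 1) and 0.071 (Ddit3-202 alone, chosen after seeing the data), and Cebpg at 0.061 (library totals). For LPS+HACA over control they were Atf4 at -0.071 (without control replicate 1) and -0.065 (without LPS+HACA replicate 2), Ddit4 at -0.20 (without LPS+HACA replicate 2), and Atf5 at -0.23 (main transcript only), -0.41 (without LPS+HACA replicate 2) and -0.27 (Atf5-202 alone, chosen after seeing the data). The fits without a library ranged over -0.85 to 0.32 for Ddit3 over LPS, and over control -0.071 to 0.41 for Atf4, -0.20 to 0.68 for Ddit4 and -0.41 to 0.52 for Atf5. The cause was not tested. Of 390 planned member values, 321 kept direction and side of the threshold.

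The labels do not say that equal replicate numbers pair libraries. With replicate number as a block, 4308 genes and 7 members changed for LPS+HACA over LPS. The counts were 936 genes and 5 members for LPS+HACA over control, and 6889 genes and 9 members for LPS over control. Of the 15 amino acid supply genes, 9 were then lower with HACA than with LPS. Deviations of same-numbered libraries correlated across genes at 0.31 for LPS and control, 0.50 for LPS+HACA and LPS, and 0.51 for LPS+HACA and control. With 2 libraries per group, these values cannot show whether the numbers pair libraries.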

Other observations

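Across the 6 libraries, the genes with profiles nearest to 3 of the stress response genes were looked up by the root mean square difference of centred log2 CPM, among 8686 genes. Nearest to Atf4 were Pirb (0.064), 9830144P21Rik (0.084) and Ddx54 (0.104). Pirb, an inhibitory receptor for MHC class I, was at 68.4 and 99.1 CPM under LPS+HACA, 97.2 and 192.0 CPM under LPS, and 57.9 and 83.8 CPM in control. Nearest to Ddit3 were Gm12981 (0.072), Myo10 (0.170) and Slc25a25 (0.194). Gm12981, of the annotated gene type antisense, overlaps the span of Sesn2 on the same strand and shares 0 exonic bases with that gene. Gm12981 was at 4.91 and 9.04 CPM under LPS+HACA, 5.31 and 11.2 CPM under LPS, and 2.07 and 2.71 CPM in control. Nearest to Chac1 was the amino acid transporter Slc7a5, at a larger distance of 0.700, then Gbp5 (0.867) and Art3 (0.934). These are descriptions over 6 libraries that share their groups.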
